A study of Mus musculus with 8 samples.

Results

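The AP-1 and immediate early transcription factor genes followed here were measured by RNA-seq in isolated adult mouse cardiomyocytes, the cells whose contraction drives the heartbeat. They were chosen by name (Fos, Fosb, Jun, Junb, Jund, Atf3, Egr1, Nr4a1, Klf2 and Klf4), not by a limit on measured values, and all 10 were found among the 37991 genes of the count table and passed the filter on low counts. Per the labels, single colored cells (4 libraries) performed the cell cycle after treatment, and double colored cells (4 libraries) received it without cycling. Both groups came from hearts of the alpha-MHC MERCREMER MADM background given 4 cell cycle genes by adenovirus, and cells were collected 2 weeks later. MerCreMer is a Cre recombinase activated by tamoxifen, here driven by the cardiomyocyte promoter alpha-MHC. MADM (mosaic analysis with double markers) can leave a cell with a single fluorescent color after recombination and division. Injected hearts are the source of both groups, so no library shows cells that were not exposed to the viruses. The injected genes encode Cdk1, Ccnb1, Cdk4 and Ccnd1, which is known from the study and not from the labels.

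Immediate early genes are transcribed within minutes of a stimulus through factors that are already present in the cell, without new protein synthesis. Fos and Jun proteins join through leucine zippers into the dimeric factor AP-1, in which Fos proteins need a Jun partner whereas Jun proteins can also pair with one another. In the heart, stretch, adrenergic stimulation and injury induce these genes, and the enzymatic isolation of cells is itself a known inducer.

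The promoters of these genes carry binding sites for factors that signaling kinases activate, among them CREB, which binds the cAMP response element. The sequences below are the 250 bases before the annotated start of Fos, the namesake of the group, and of the 4 genes that passed the threshold in the paired fit described further on. They are from RefSeq, build GRCm38.p6, where 9 of the 10 genes were matched and Egr1 was not. Capitals mark the core element TGACG, on either strand, and its overlapping variant TGCGTCA, which holds the reverse complement of the core element.
Fos, chr12:85473640-85473889, plus strand: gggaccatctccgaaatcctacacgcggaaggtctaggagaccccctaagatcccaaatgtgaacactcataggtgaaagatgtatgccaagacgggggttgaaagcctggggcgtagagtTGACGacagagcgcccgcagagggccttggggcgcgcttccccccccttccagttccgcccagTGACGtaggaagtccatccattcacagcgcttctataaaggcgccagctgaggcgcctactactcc
Atf3, chr1:191183334-191183583, minus strand: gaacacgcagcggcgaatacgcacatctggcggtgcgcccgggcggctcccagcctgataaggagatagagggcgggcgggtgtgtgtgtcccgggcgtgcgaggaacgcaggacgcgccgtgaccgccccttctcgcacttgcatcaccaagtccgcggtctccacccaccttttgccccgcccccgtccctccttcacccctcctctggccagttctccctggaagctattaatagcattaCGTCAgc
Nr4a1, chr15:101266596-101266845, plus strand: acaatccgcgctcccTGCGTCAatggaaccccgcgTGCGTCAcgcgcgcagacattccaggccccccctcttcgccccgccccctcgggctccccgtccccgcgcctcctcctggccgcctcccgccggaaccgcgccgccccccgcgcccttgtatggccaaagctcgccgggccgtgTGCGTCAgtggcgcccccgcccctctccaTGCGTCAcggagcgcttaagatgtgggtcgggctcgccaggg
Klf2, chr8:72318812-72319061, plus strand: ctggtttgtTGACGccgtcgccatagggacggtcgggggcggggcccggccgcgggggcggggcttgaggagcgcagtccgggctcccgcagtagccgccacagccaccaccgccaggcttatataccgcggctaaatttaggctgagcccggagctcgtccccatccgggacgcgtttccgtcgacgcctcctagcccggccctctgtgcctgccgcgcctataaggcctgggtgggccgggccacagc
Klf4, chr4:55532476-55532725, minus strand: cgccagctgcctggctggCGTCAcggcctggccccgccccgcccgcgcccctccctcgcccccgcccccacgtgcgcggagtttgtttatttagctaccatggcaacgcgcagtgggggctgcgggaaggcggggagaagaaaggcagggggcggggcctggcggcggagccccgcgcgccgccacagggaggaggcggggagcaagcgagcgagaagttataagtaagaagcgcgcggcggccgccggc

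The core element TGACG was found before the start of 7 of the 9 matched genes, against 17.8% of 32851 RefSeq promoters of the same length. The element GGGCGG, also searched, was in 7 of the 9 windows as well, against 32.7% of all promoters. The part of base composition in these matches was not tested. Fos held 2 copies, one of them starting 66 bases before the start site. Nr4a1 held 4 copies of TGCGTCA, which 1.75% of all promoters hold and which Fosb also held, once. The full palindrome TGACGTCA, present in 1.55% of all promoters, and the AP-1 element TGAGTCA, present in 4.46%, were in none of the 9 windows. The MEF2 site, bound by muscle-enriched MEF2 factors, was in the windows of Atf3, Jun and Klf2, against 2.92% of all promoters. The CArG box of serum response factor, in 1.47% of all, was in none of the 9 windows. Sites farther upstream, and those of Egr1, were not searched. The motifs were chosen after the promoters had been read. Both strands were searched for each motif. A match here is a description of letters within 250 bases and not a measured binding site.

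Libraries held 23820700 to 30082278 counted reads. Mitochondrially encoded genes took 77.5% to 85.9% of the reads in single colored and 84.2% to 88.3% in double colored libraries, which left 3750616 to 6112595 nuclear-encoded reads in single colored and 3503353 to 3850391 in double colored libraries. The TMM factors, which scale the libraries so that most genes are level, ran from 0.953 to 1.44 in single colored libraries and from 0.733 to 0.972 in double colored ones. With library totals alone in place of these factors, the median log2 fold change of all genes moved from near 0 to 0.48. Every fold change below is therefore relative to the bulk of the transcriptome. The listed markers of cardiomyocytes were abundant in every library, and myeloid and lymphocyte markers were higher in single colored cells.

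Compared with double colored cells, single colored cells had lower TMM-scaled levels of all 10 genes, with log2 fold changes of −0.68 to −0.09 and a median of −0.45, but none passed the threshold (edgeR quasi-likelihood test, adjusted p under 0.05). With library totals alone Fosb, Jun, Junb and Jund had log2 fold changes of 0.02 to 0.36, still below the 0.48 of the median gene. In that scaling Fos, at −0.0096, and Egr1, at −0.0036, lay at about 0, and Klf2, Klf4, Nr4a1 and Atf3 at −0.07, −0.12, −0.18 and −0.25. In bulk RNA, fewer cells of a type and less RNA per cell cannot be told apart. The 10 genes were chosen with earlier results of these data known. Their high and low libraries were largely shared, so they do not count as independent results. At an unadjusted p under 0.05, 8 of the 10 were lower and none higher, against 6.10% of all 12466 genes that were lower at that level. That count was 3 without double colored replicate 3, against 4.18% of all genes, 4 without double colored replicate 4, against 4.02%, and 0 without single colored replicates 1 and 3, against 3.83%. Over all tested genes 309, which is 2.48%, passed, 20 of them (0.160%) lower and 289 (2.32%) higher. With library totals alone none of the 10 passed either, against 0.00802% of all genes called lower and 11.1% called higher. DESeq2 also called none, with 8 lower at an unadjusted p under 0.05, against 6.55% of all genes, and limma-voom called none, with 5, against 6.39%. With no filter on low counts 3 passed, Atf3, Nr4a1 and Klf4, against 0.688% of all genes called lower in that fit. Negative log2 fold changes made up 50.6% of all tested genes, whose median was −0.01. The 5th and 95th percentiles of all tested genes were −0.63 and 1.03, and of the 10 genes only Atf3 lay outside them.

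With the replicate number as a block, 4 of the 10 genes passed, all lower in single colored cells, against 2.57% of all genes in that direction and 4.97% in the other. They were Nr4a1 (log2 fold change −0.58 ± 0.13, SE, edgeR adjusted p = 0.0117), Atf3 (−0.62 ± 0.15, 0.0142), Klf4 (−0.55 ± 0.14, 0.0229) and Klf2 (−0.54 ± 0.15, 0.0335). These calls depend on the pairs. Without both libraries numbered 1 the count was 4, with Egr1 in place of Klf2, against 1.30% of all genes called lower. It was 2 without those numbered 2, against 1.47%, none without those numbered 3, against 1.34%, and 1 without those numbered 4, against 0.885%. Without both libraries numbered 3, 4 of the 10 were lower at an unadjusted p under 0.05, against 8.87% of all genes.

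**Figure D1:**
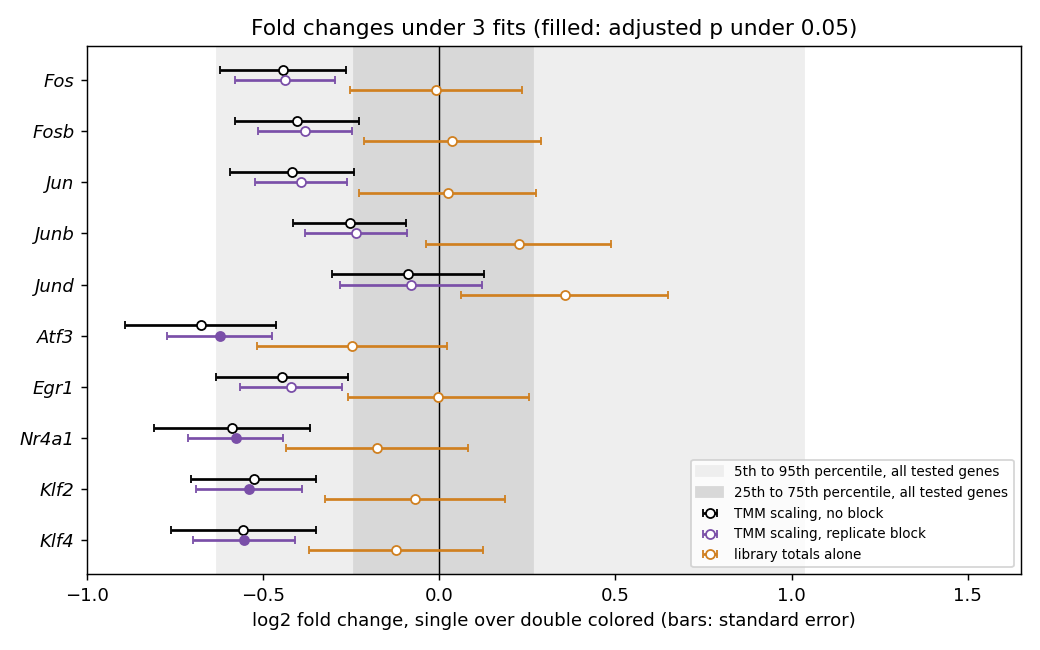
Log2 fold change of single over double colored cells (x axis, bars SE) for each gene (rows) with TMM scaling, with a replicate block added, and with library totals alone; filled points have an adjusted p under 0.05, and grey bands show percentiles of all tested genes in the TMM fit without block. All 10 points lie left of 0 in both TMM fits, 4 of them filled with the block, and the points for library totals alone run from −0.25 for Atf3 to 0.36 for Jund, with Fosb, Jun, Junb and Jund right of 0.

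The Fos proteins come first by role. Fos (ENSMUSG00000021250, mm9 chromosome 12, 86814840 to 86818223), the partner that lends AP-1 its DNA binding stability, was measured at 34.0, 50.2, 33.3 and 38.3 CPM in single colored replicates 1 to 4, against 42.5, 54.0, 69.0 and 46.5 CPM in double colored ones. The groups overlapped through single colored replicate 2. The log2 fold change was −0.44 ± 0.18 (SE, edgeR adjusted p = 0.245), and it was −0.29 without double colored replicate 3. Fosb (ENSMUSG00000003545, mm9 chromosome 7, 19888070 to 19895394), a paralog whose short splice form accumulates under repeated stimulation in brain, had 33.3, 45.5, 40.0 and 39.7 CPM in single colored cells, against 39.8, 46.1, 70.0 and 53.9 CPM in double colored cells. Its groups overlapped as well, and double colored replicate 3 was again the highest. The log2 fold change was −0.40 ± 0.18 (adjusted p = 0.284, edgeR), and −0.24 without double colored replicate 3. The gene-level counts do not separate splice forms of Fosb.

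Among the Jun genes, Junb and Jund had the smallest fold changes of the 10. Jun (ENSMUSG00000052684, mm9 chromosome 4, 94715725 to 94718913), the strongest activator among them, had 43.1, 53.8, 52.3 and 55.5 CPM in single colored cells, against 55.4, 54.5, 90.5 and 72.9 CPM in double colored cells. The highest single colored library lay just above the lowest double colored ones, and the log2 fold change was −0.42 ± 0.18 (edgeR adjusted p = 0.269). Without double colored replicate 3 that of Jun was −0.26. Junos lies on the other strand over 7.28% of the exon length of Jun, and without a known strand setting the reads of the overlap cannot be told apart. Junb (ENSMUSG00000052837, mm9 chromosome 8, 87500811 to 87502617), a weaker activator that can restrain Jun, had 13.4, 12.0, 13.2 and 12.7 CPM in single colored replicates 1 to 4, against 11.9, 13.9, 18.6 and 16.9 CPM in double colored ones. The single colored values lay close together, within the wider double colored range. Its log2 fold change was −0.26 ± 0.16 (edgeR adjusted p = 0.493), and in the pair numbered 1 the single colored library was the higher one. Without double colored replicate 3 that of Junb was −0.15. Jund (ENSMUSG00000071076, mm9 chromosome 8, 73221638 to 73224515), the member that many cells express steadily without a stimulus, had 4.53, 5.27, 5.91 and 6.98 CPM in single colored replicates, against 6.16, 4.64, 8.08 and 5.22 CPM in double colored ones. The groups were mixed throughout. The log2 fold change of −0.09 ± 0.22 (edgeR adjusted p = 0.906) was smaller than its error, and single colored libraries were lower in 2 of the 4 pairs. Without double colored replicate 3 it was 0.08. Gm11175 lies on the other strand over 18.9% of the exon length of Jund.

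Atf3 had the largest fold change of the 10 in the fit without block. It encodes a stress-induced factor of the same zipper class that pairs with Jun proteins and often represses transcription. Atf3 (ENSMUSG00000026628, mm9 chromosome 1, 192994175 to 193007219) was measured at 10.6, 14.4, 13.7 and 15.0 CPM in single colored replicates 1 to 4, against 13.2, 18.0, 31.0 and 23.7 CPM in double colored ones. Only double colored replicate 1 lay within the single colored range. The log2 fold change was −0.68 ± 0.21 (edgeR adjusted p = 0.122), which is a level of 0.625 times that in double colored cells. Without double colored replicate 1 the value was −0.86, with an edgeR adjusted p of 0.0379, in a fit that called 0.0854% of all genes lower. Without double colored replicate 3 it was −0.45 (edgeR adjusted p = 0.362), and over all fits the adjusted p ran from 0.00595, with the block and without both libraries numbered 1, to 0.598 without single colored replicates 1 and 3.

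**Figure D2:**
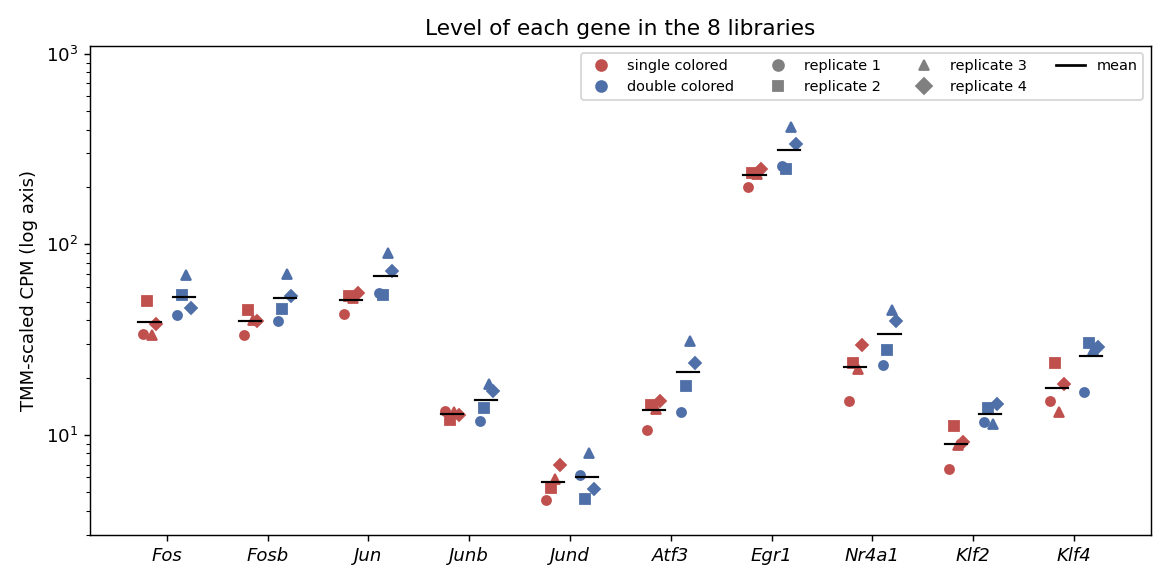
TMM-scaled CPM (log y axis) of the 10 genes (x axis) in every library, single colored in red on the left and double colored in blue on the right of each gene; symbols mark the replicate number and bars the mean. Egr1 lies highest, at 201 to 249 CPM in single colored, against 247 to 412 CPM in double colored libraries, and the triangle of double colored replicate 3 tops its group in 8 of the 10 genes.

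Among the zinc finger and orphan receptor genes, Egr1 (ENSMUSG00000038418) was the most abundant. This growth factor-induced zinc finger activator also induces its own corepressor Nab2. Egr1 had 201, 237, 233 and 249 CPM in single colored cells, against 258, 247, 412 and 337 CPM in double colored cells. The ranges overlapped only where single colored replicate 4 lay above double colored replicate 2. The log2 fold change was −0.45 ± 0.19 (edgeR adjusted p = 0.268), and −0.29 without double colored replicate 3. Nr4a1 (ENSMUSG00000023034, mm9 chromosome 15, 101097277 to 101105223), an orphan nuclear receptor also called Nur77 that acts without a known physiological ligand, had 15.0, 23.7, 22.3 and 29.6 CPM in single colored cells, against 23.3, 27.9, 45.5 and 39.5 CPM in double colored cells. The single colored library was the lower one in every pair, with log2 differences of −1.03 to −0.23, although the groups overlapped. Its log2 fold change was −0.59 ± 0.22 (edgeR adjusted p = 0.207).

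Klf2 was the one gene of the 10 whose groups did not overlap. It encodes a Krüppel-like zinc finger factor induced by blood flow in endothelial cells, which also maintains quiescent T cells. Klf2 (ENSMUSG00000055148, mm9 chromosome 8, 74842932 to 74845555) had 6.63, 11.2, 8.82 and 9.21 CPM in single colored replicates 1 to 4, against 11.8, 13.8, 11.4 and 14.6 CPM in double colored ones. A gap of this kind was seen for 3.76% of all tested genes in the lower and 5.37% in the higher direction. The log2 fold change was −0.53 ± 0.18 (edgeR adjusted p = 0.152). Summed over 8 endothelial markers, single colored libraries held 136 to 169 CPM and double colored libraries 138 to 185 CPM, with a median log2 fold change of −0.13 and no marker past the threshold. The part of endothelial RNA in the Klf2 level was not tested. Klf4 (ENSMUSG00000003032, mm9 chromosome 4, 55540013 to 55545347), a related factor that restrains proliferation in several cell types, had 15.1, 23.9, 13.2 and 18.6 CPM in single colored cells, against 16.8, 30.3, 27.8 and 29.0 CPM in double colored cells. The low double colored replicate 1 made the groups overlap, and the log2 fold change was −0.56 ± 0.21 (edgeR adjusted p = 0.195).

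**Figure D3:**
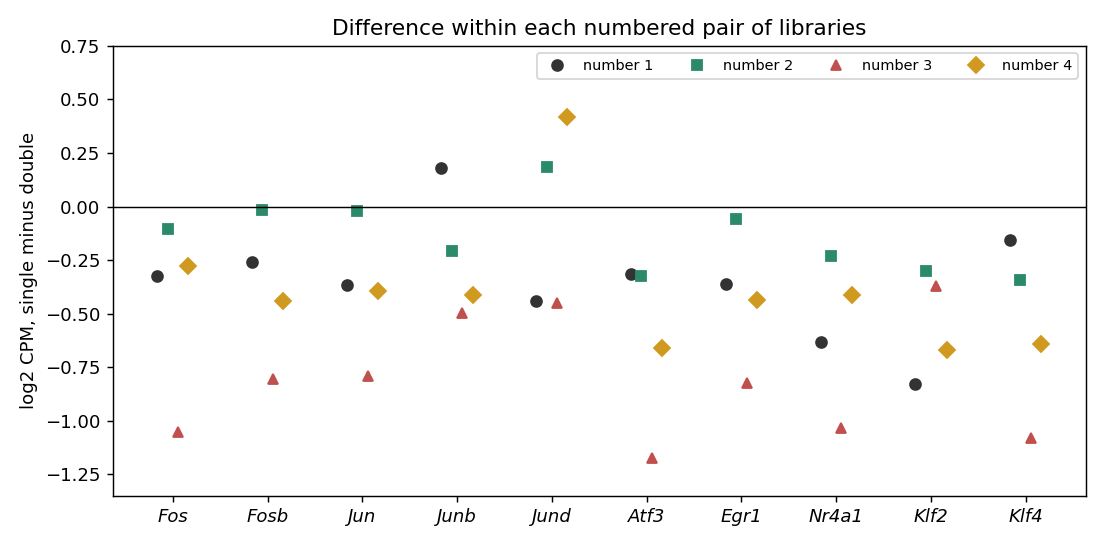
Difference in log2 CPM, single minus double colored, within each numbered pair (y axis) for the 10 genes (x axis); symbols mark the number. For 8 genes all 4 pairs lie below 0, while Junb has 1 pair and Jund 2 pairs above it. The pair numbered 2 lies near 0 for Fosb (−0.018), Jun (−0.019) and Egr1 (−0.059). These signs are those of TMM-scaled CPM, and pairs scaled by library totals alone were not computed. The share of all tested genes with every pair below 0 was not computed. The pair numbered 3 lies lowest for every gene except Klf2, with values from −0.45 for Jund to −1.05 for Fos and −1.18 for Atf3.

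High and low libraries were largely shared between the genes. Among double colored libraries, replicate 3 held the highest level of 8 of the 10 genes and replicate 1 the lowest level of 6. Among single colored libraries, replicate 1 held the lowest level of 7. The same counts were not made over all tested genes. Egr1 and Jun kept an almost fixed proportion, since the log2 ratio of their reads was 2.14 to 2.22 in single and 2.18 to 2.22 in double colored libraries, a ratio that no scaling changes. The log2 ratio of Fos to Jun reads ranged more widely, from −0.65 to −0.10 in single and from −0.65 to −0.01 in double colored libraries. The log2 ratio of Atf3 to Jund reads was 1.11 to 1.45 in single and 1.10 to 2.18 in double colored libraries. Double colored replicate 1 held the lowest of these values, while the other 3 double colored libraries lay above every single colored one. The group difference had p = 0.143 (exact permutation test over 70 groupings). Atf3 and Jund had the largest and smallest fold changes of the 10, so their ratio is no separate result. The log2 ratio of Fosb to Fos was −0.14 to 0.26 in single and −0.23 to 0.21 in double colored libraries. That of Klf2 to Klf4 was −1.19 to −0.58 in single and −1.29 to −0.51 in double colored ones. That of Atf3 to Jun was −2.02 to −1.88 and −2.07 to −1.54, in the same order. Together the 10 genes took 0.300% ± 0.0246 of nuclear-encoded reads in single and 0.380% ± 0.0758 in double colored libraries (SD, n = 4 each). The groups overlapped, at 0.274% to 0.322% in single and 0.321% to 0.481% in double colored libraries. Egr1 alone made up 49.7% to 53.5% of the reads of the 10 genes in single and 48.4% to 53.8% in double colored libraries.

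Per kilobase of gene length, Egr1 was the highest, at 51.3 ± 4.60 CPM per kb in the single colored group and 69.9 ± 17.2 CPM per kb in the double colored group (SD over 4 libraries), above the next gene in 8 of 8 libraries. Fos and Jun followed at 16.6 ± 3.33 and 16.0 ± 1.74 CPM per kb in single colored cells, and at 22.5 ± 4.97 and 21.4 ± 5.33 in double colored cells. Fos exceeded Jun in 5 of 8 libraries, so their order does not hold beyond the spread. Jun exceeded Fosb in 8 of 8. Fosb exceeded Nr4a1 in 6 of 8 libraries, and Nr4a1 exceeded Atf3 in 8 of 8. Atf3, Junb, Klf4 and Klf2 lay close together, each above the next in 5 or 6 of 8 libraries. Jund was the lowest, at 1.97 ± 0.361 CPM per kb in single and 2.09 ± 0.524 CPM per kb in double colored cells, below Klf2 in 8 of 8.

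**Figure D4:**
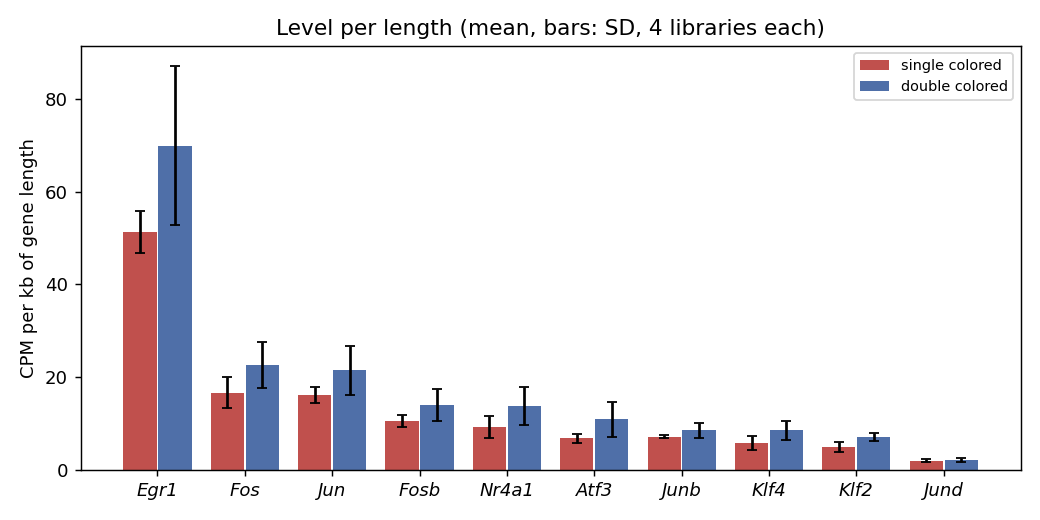
Mean CPM per kb of gene length (y axis, bars SD over 4 libraries) of the 10 genes in order of their mean over all libraries, single colored in red and double colored in blue. Egr1 stands apart at 51.3 and 69.9 CPM per kb, and Jund is the lowest at 1.97 and 2.09.

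By a fixed rule, the 5 genes whose deviations from their group means followed the average of the 10 most closely, among 9640 genes of at least 1 CPM, were Abca2, Celsr2, Zfp36, Slc27a1 and Dnajc5. Their Pearson correlations over the 8 libraries were 0.973, 0.968, 0.963, 0.961 and 0.960, with Spearman values of 0.929, 0.952, 0.833, 0.905 and 0.929. They are the top of a ranking of many genes over few libraries that share depth and composition, and are given as a description only. Zfp36, which encodes an RNA-binding protein that speeds the decay of short-lived messages, is itself an immediate early gene. It averaged 109 ± 13.5 CPM over single colored libraries, against 131 ± 38.3 CPM over double colored ones (SD, n = 4 each, edgeR log2 fold change −0.25 ± 0.20, adjusted p = 0.603).

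Other dimerization partners lay on both sides of 0. Of 19 listed AP-1 and bZIP genes 15 were tested, 10 of them above 0 and 5 below it on the log2 scale, around a median of 0.10. None passed the threshold in edgeR, DESeq2 or limma-voom, and at an unadjusted p under 0.05 each tool had 1 higher and none lower, against 9.02% and 6.10% of all genes in edgeR. With library totals alone all 15 lay above 0, with a median of 0.56. The small partner Mafk had a log2 fold change of 0.40 ± 0.21 and Atf4, of the integrated stress response, one of −0.23 ± 0.14 (edgeR adjusted p = 0.389 and 0.453). Fosl1, Batf and Batf3 had too few reads to be tested, and Atf7 was not matched.

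Of 37 other immediate early genes 34 were tested, 20 below and 14 above 0 on the log2 scale, around a median of −0.11 that was 0.33 with library totals alone. None passed in edgeR, DESeq2 or limma-voom. At an unadjusted p under 0.05, 3 of the 34 were lower and 4 higher in edgeR, near the 6.10% and 9.02% of all genes. DESeq2 gave the same counts, against 6.55% and 9.21%, and limma-voom had 2 lower and 2 higher, against 6.39% and 8.77%. Btg2, an antiproliferative gene, had 27.0, 48.2, 40.1 and 42.0 CPM in single colored cells, against 41.0, 55.5, 62.3 and 64.4 CPM in double colored cells. Its log2 fold change was −0.50 ± 0.19 (edgeR adjusted p = 0.201), and it passed with the replicate block (−0.51 ± 0.12, adjusted p = 0.0134). Dusp1, a phosphatase that switches off MAP kinases, averaged 139 ± 19.6 CPM over single colored libraries, against 187 ± 33.2 CPM over double colored ones (log2 fold change −0.43 ± 0.18, edgeR adjusted p = 0.244). Dusp2, a related phosphatase known from activated lymphocytes, had a positive fold change, with 74, 14, 35 and 16 reads in single colored and 3, 6, 17 and 2 reads in double colored libraries (log2 fold change 1.71 ± 0.65, edgeR adjusted p = 0.204). In these libraries 10 lymphocyte markers summed to 16.8 to 34.9 CPM in single colored, against 1.84 to 4.49 CPM in double colored cells, with 7 markers past the threshold, all higher in single colored cells. The part of lymphocytes in the Dusp2 level was not tested.

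Upstream kinases and factors were balanced, with 15 of 30 tested genes positive, 15 negative and a median of 0.00 that was 0.51 with library totals alone. None passed in edgeR, DESeq2 or limma-voom, each with 2 of 30 lower and none higher at an unadjusted p under 0.05, near the 6.10% of all genes lower in edgeR. The smallest p values belonged to Mapk10, the JNK isoform of brain and heart (log2 fold change −0.58 ± 0.22, edgeR adjusted p = 0.204), and Mef2a, a muscle transcription factor (−0.37 ± 0.14, 0.218). Mkl1, a coactivator of serum response factor found under its current name Mrtfa, followed at 0.55 ± 0.30 (edgeR adjusted p = 0.417). Heat shock genes are known to be induced along with immediate early genes when tissue is dissociated. Of 12 listed, 9 were negative and 3 positive, with a median of −0.13, whereas with library totals alone all 12 were positive, with a median of 0.35. None passed in edgeR, DESeq2 or limma-voom. At an unadjusted p under 0.05, 3 of the 12 were lower in edgeR and in DESeq2 and none in limma-voom, against 6.10%, 6.55% and 6.39% of all genes. In edgeR these were Dnaja1 (−0.37 ± 0.16), Dnajb1 (−0.40 ± 0.18) and Hspd1 (−0.34 ± 0.15), with edgeR adjusted p = 0.279, 0.303 and 0.315. Other genes on either strand cover 10.8% of the exon length of Dnaja1, and Hspe1 covers 4.24% of that of Hspd1.

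Cardiomyocyte markers, with TMM scaling, had a median fold change like that of the 10 genes. The 10 markers summed to 14113 to 25805 CPM in single colored, against 22492 to 29693 CPM in double colored libraries, with a median log2 fold change of −0.45 and none past the threshold. Their lowest sum was in single colored replicate 1, which also held the lowest level of 7 of the 10 immediate early genes, and their part in the results was not tested. Fibroblast markers summed to 647 to 1883 CPM in single colored, against 334 to 772 CPM in double colored libraries, with 1 of 8 past the threshold, higher in single colored cells. Smooth muscle and pericyte markers, with 218 to 314 CPM in single colored, against 285 to 394 CPM in double colored libraries, had none past it. Myeloid markers summed to 222 to 385 CPM in single colored, against 104 to 144 CPM in double colored libraries, with 5 of 10 past the threshold, all higher in single colored cells.

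**Figure D5:**
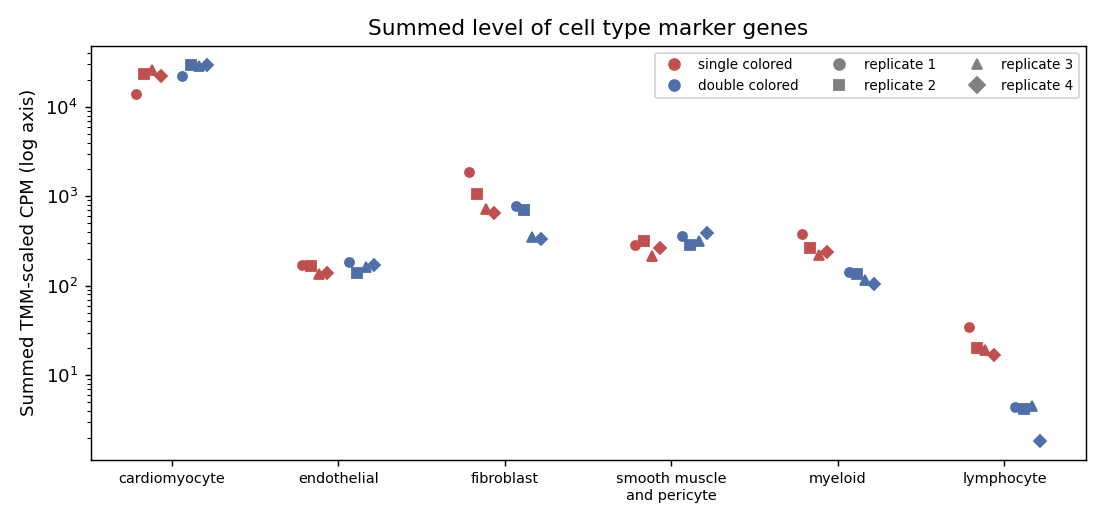
Summed TMM-scaled CPM (log y axis) of each cell type marker list (x axis) in every library, single colored in red on the left and double colored in blue on the right, with symbols for the replicate number. Myeloid and lymphocyte sums are higher in all single colored libraries, whereas cardiomyocyte sums overlap, at 14113 to 25805 CPM in single colored, against 22492 to 29693 CPM in double colored libraries.

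In the authors' deposited table, all 10 genes were lower in single colored cells, with log2 fold changes of double over single colored between 0.10 for Jund and 0.69 for Atf3. No gene among the 15711 of the authors' deposited table reached an FDR below 0.05, and 9.77% had a raw p below 0.05. Of the 10 genes, 4 had a raw p below 0.05 in the authors' deposited table, Atf3 (0.0184), Klf2 (0.0294), Klf4 (0.0354) and Nr4a1 (0.0371). These are the same 4 genes that passed with the replicate block, and both results come from the same 8 libraries.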

How the data were processed

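RNA was sequenced from 8 libraries of isolated adult mouse cardiomyocytes, 4 single colored and 4 double colored, grouped by the sample titles. Per the labels' protocols, RNA came from the miRNeasy Micro Kit and libraries from the Ovation RNA-seq System v2. Per the submitters' processing notes, the tools were STAR 2.5.2b and featureCounts (Subread), and the build was mm9. The deposited values used here are whole raw read counts per gene, per the file headers, not estimated or expected counts, and nothing was rounded. No source used here gives the strand setting of the counting.

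Symbols were matched by Ensembl identifier to the GENCODE vM21 names for 32919 of 37991 genes, and 3 listed genes were found through their older names. Of the listed genes, Atf7 was not matched by identifier. The genes described and the gene lists were chosen with earlier results of these data known. The 10 genes were named whatever their values. In each of the 4 further lists every gene past the threshold was named, or, where fewer than 3 passed, the 3 with the smallest p. Results of some listed genes are not reported here.

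The counts of all 8 libraries were tested with edgeR 4.0.16 in R 4.3.3 (filterByExpr with a minimum count of 10, TMM scaling, robust quasi-likelihood F-test, adjusted p by Benjamini-Hochberg over 12466 genes, threshold 0.05). Every fold change is log2, single over double colored, and its standard error (SE) comes from the F statistic. CPM (read counts scaled to a common total) use TMM-scaled library totals. The test was tried on simulated data before use. The authors' deposited log2 fold changes, with their deposited p-values and FDR, are double over single colored, the reverse of those computed here, and the test behind them is not stated in the labels or headers. Alternatives were DESeq2 1.42.0, limma-voom (limma 3.58.1) with quality weights, RLE factors, library totals alone, 2 other filters, no mitochondrially encoded genes, a replicate block and the omission of each library. Added after the results were seen were the omission of single colored replicates 1 and 3 together and of each numbered pair under the block.

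Replicate numbers 1 to 4 occur in both groups. After removal of group means, same-numbered libraries had correlations over genes of 0.257, 0.126, 0.136 and 0.139 for numbers 1 to 4. All lay above 0.1, which meets the criterion set for a pairing. Differently numbered libraries ran from −0.213 to 0.108. Single colored replicate 3 with double colored replicate 4, at 0.108, also met this criterion, which alone therefore does not establish a pairing. The fit without the block remained the one reported for each gene, and the paired fit is given beside it where it changed a call. Its sources are these correlations and the sample descriptions, in which same-numbered libraries share an id. What a number marks is not stated, nor whether replicates came from separate animals, so p-values reflect only how these libraries vary, in part perhaps technically.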

Additional observations from a re-analysis of the deposited data

How the results depend on the processing

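With RLE factors, DESeq2, the filter at 5 CPM, without mitochondrially encoded genes, or with limma-voom, all 10 genes kept a negative log2 fold change and none passed. With no filter 3 passed, lower in single colored cells, against 0.688% of all genes, Atf3 (−0.68), Nr4a1 (−0.59) and Klf4 (−0.56). With the replicate block 4 passed, Atf3 (−0.62), Nr4a1 (−0.58), Klf4 (−0.55) and Klf2 (−0.54), and 1 other immediate early gene. No other listed gene changed its call with the block. With library totals alone the signs of Fosb (0.037), Jun (0.023), Junb (0.23) and Jund (0.36) turned, while 2 of 15 AP-1 and bZIP genes, 5 of 34 other immediate early genes and 1 of 30 upstream genes passed, all higher, against 11.1% of all genes called higher in that fit.

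Leaving out 1 library, or under the block both of 1 number, gave 0 to 4 called genes among the 10. Log2 fold changes then ran from −0.86 to −0.43 for Atf3, −0.75 to −0.42 for Nr4a1, −0.74 to −0.38 for Klf4, −0.55 to −0.29 for Egr1 and −0.26 to 0.081 for Jund. Without double colored replicate 3 the median of the 10 was −0.29, and without single colored replicates 1 and 3 it was −0.32, with Jund at 0.023 and none of the 10 at an unadjusted p under 0.05. Under the block, Btg2, Dusp1 and Mef2a passed without number 1, and Btg2 and Rhob without number 2. The cause of these shifts was not tested. Between 102 and 9536 reads per gene and library stood behind the 10 genes.

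Over all genes 309 passed in the fit without block, 1390 with library totals alone, 556 with DESeq2, 805 with no filter, 97 at 5 CPM, 939 with the replicate block and 76 without single colored replicates 1 and 3. Leaving out 1 library gave 134 to 304, with 134 without double colored replicate 4, 142 without single colored replicate 1 and 191 without double colored replicate 2, and the 20 lower calls became 1 to 29.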
